A study of Bos taurus with 12 samples.

Results

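The Hippo pathway genes described here are the transcriptional coactivators YAP1 and WWTR1, the DNA-binding factors TEAD1, TEAD2, TEAD3 and TEAD4, the kinases LATS1 and LATS2, and the angiomotins AMOT and AMOTL2. They were chosen by gene symbol and not by a rule on their values, though earlier results of these data were known. All 10 were found among the 32637 genes of the count table. They were measured by RNA-seq in expanded bovine blastocysts produced in vitro, in 6 female and 5 male libraries. The embryos came from slaughterhouse oocytes fertilized with frozen semen of bulls used in rotation, and were cut evenly about a week later, with one piece sexed by PCR and the other kept for RNA. Both pieces held ICM (inner cell mass) and trophectoderm. Pieces of a pair of blastocysts of one sex were joined in each library, and the replicates are therefore pools. Both sexes had the same culture and no other treatment. Blastocysts were collected on successive days and over several weeks, with the bull changed between weeks. The labels give neither day nor bull for a library, so a balance of these between the sexes could not be checked. A long-read sample of 4-cell embryos belongs to the same series and was not analysed here.

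Hippo signaling is a kinase cascade that reports cell contact and cell polarity to the nucleus. When it is active, LATS kinases phosphorylate YAP1 and WWTR1 (also called TAZ), which then stay in the cytoplasm. When it is inactive, both enter the nucleus and activate transcription with a TEAD factor. In mouse embryos, outer cells with an apical surface keep angiomotins away from the cell junctions, LATS stays off, and YAP1 with TEAD4 turns on trophectoderm genes such as Cdx2 and Gata3. In inner cells, angiomotins at the junctions bind YAP1 and promote LATS activity, and the cells take the ICM path. Much of this control acts on protein localization and phosphorylation, which RNA levels do not measure.

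Female libraries held between 6664112 and 16162985 counted reads, and male libraries between 9942952 and 21392764. XIST was at 52.3 CPM or more in every female and at 3.97 CPM or less in every male, and DDX3Y of the Y chromosome was at 31.9 CPM or more in every male and at 1.89 CPM or less in every female. CPM here is the count scaled to library size with TMM factors. Male replicate 5 stood apart, with the most counted reads and the fewest genes detected, 14937 against 16985 or more in the other libraries. The marker lists of both blastocyst lineages were expressed in both sexes. The 10 trophectoderm markers summed to between 7879 and 23154 CPM in females and between 9195 and 36145 CPM in males, the 7 ICM markers to between 562 and 981 CPM and between 844 and 1079 CPM, and neither list had a sex-biased call by the edgeR test described next. In that test, 7 ICM markers had fitted values above 0 (higher in males) and 0 below, against 5 and 5 trophectoderm markers. POU5F1 and SPIC carried much of the ICM sum, averaging 345 and 286 CPM in females and 464 and 300 CPM in males. NANOG ran from 9.31 to 168 CPM in females and from 66.9 to 292 CPM in males. CRIPTO ran from 0 to 10.2 CPM and from 0.064 to 52.6 CPM. Among the markers of both lists, edgeR without its filter on low counts called NANOG, CRIPTO and PTGS2, and DESeq2 called PTGS2. Of 7 cumulus cell markers, 3 had enough counts to be tested. In pooled embryo pieces, fewer cells of a type and less RNA per cell cannot be told apart.

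Males were compared with females by edgeR's quasi-likelihood test over all 12802 genes with enough counts, all 10 members included, with the library number, the first digit of the library's name, as a block. Sex-biased calls required an adjusted p (Benjamini-Hochberg) below 0.1 together with more than a 1.5-fold difference. One member passed, AMOT, which was higher in females. The other 9 did not pass, and 5 of them had fitted values below 0 (higher in females) and 4 above 0. Over all tested genes 1.91% were called, 192 of them higher in females and 53 in males. The median log2 fold change of the 10 members was -0.05, and that of all tested genes was 0.01.

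**Figure D1:**
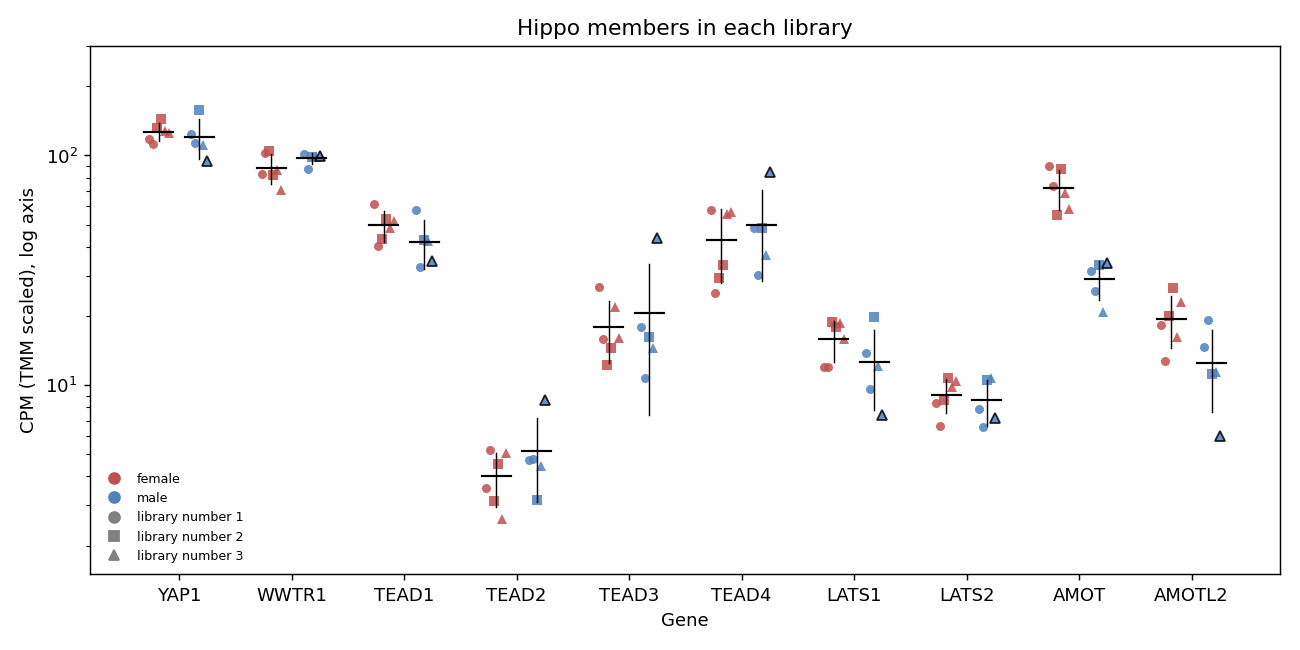
Levels of the 10 members in each library, in CPM on a log axis, with one point per library, females in red and males in blue. Horizontal bars are group means and vertical lines are 1 SD, the marker shape gives the library number, and male replicate 5 has a black outline. Only for AMOT do the sexes not overlap, with the females between 55.0 and 89.9 CPM and the males between 20.9 and 34.0 CPM.

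AMOT, angiomotin, is a junction and actin-binding scaffold protein that holds YAP1 in the cytoplasm and promotes LATS activity. The gene lies at 61245471 to 61313882 on the X chromosome of the ARS-UCD assembly and was counted with between 244 and 1180 reads per library. Female replicates 1 to 6 had 89.9, 73.6, 55.0, 87.5, 68.7 and 58.7 CPM, and male replicates 1 to 5 had 31.4, 25.8, 33.4, 20.9 and 34.0 CPM. Every female library was above every male library, a separation found in 1.88% of all tested genes and in 29.2% of the X-linked ones. Female libraries averaged 72.2 ± 14.4 CPM (SD, n = 6) and male libraries 29.1 ± 5.60 CPM (SD, n = 5). The fitted level was 2.45-fold higher in females (95% interval 1.82 to 3.30), a log2 fold change of -1.29 for males against females (standard error, SE, 0.20, edgeR adjusted p = 0.00817). The difference was present within each library number, at -1.51, -1.05 and -1.25 on the log2 CPM scale for numbers 1, 2 and 3. Without male replicate 5 the log2 fold change was -1.41.

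AMOT is the only X-linked member, and its difference was set beside those of the 476 tested X-linked genes. Their median log2 fold change was -0.85, with quartiles of -1.36 and -0.54, and 449 of them were below 0. By comparison, the median of the 12172 autosomal genes was 0.02. Among X-linked genes, 27.7% were called higher in females, and 27.5% (131 genes) had a fitted difference toward females larger than that of AMOT. Among the 252 X-linked genes with a mean of at least 10 CPM, whose median was -0.74, 38 had a larger difference than AMOT.

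The log2 CPM of AMOT was also taken relative to the median log2 CPM of the other tested X-linked genes in the same library. This value averaged 2.24 ± 0.30 (SD, n = 6) for female libraries and 1.98 ± 0.33 (SD, n = 5) for male ones, and the sexes overlapped. The difference of -0.26 did not exceed the spread of the libraries (p = 0.21 by a two-sided exact permutation test, and 0.21 when adjusted over 5 ratios). It was -0.55, 0.15 and -0.23 within library numbers 1 to 3. It was -0.15 without male replicate 4 and -0.16 without female replicate 1. A sex difference of AMOT relative to this median level was not detected. The reference is a median of levels and not of fold changes. AMOT lay above it in every library, so genes at lower levels than AMOT set it. Whether AMOT differed by more than X-linked genes of its own level was not tested.

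**Figure D2:**
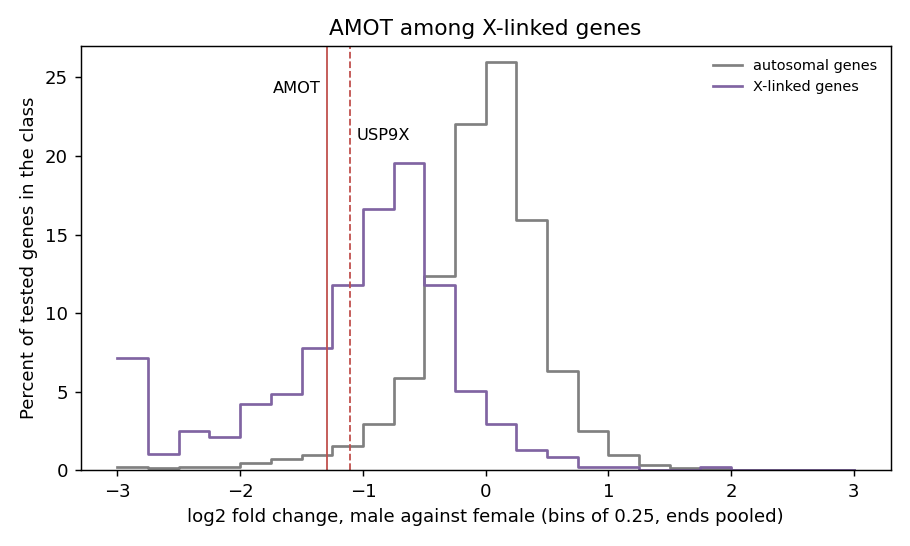
Distribution of the log2 fold change of males against females, in percent of tested genes per bin of 0.25, for X-linked genes (purple) and autosomal genes (grey), with values beyond the axis pooled in the end bins. The solid line marks AMOT at -1.29 and the dashed line USP9X at -1.10, both on the female side of the X-linked median of -0.85.

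Few of the counted genes around AMOT on the X chromosome were expressed. Of 9 annotated genes that start within 1 Mb of AMOT's start, AMOT alone had enough counts to be tested. The pseudogenes among the 9 were not in the count table. RTL4, LHFPL1 and another annotated gene of the interval had at most 20 reads in any library, so the difference could not be compared with that of close neighbours. The levels most like those of AMOT over the 11 libraries, among 7366 genes with a mean of at least 10 CPM, were those of POF1B (Pearson r = 0.96), UBA1 (r = 0.95) and ZFX (r = 0.94), with Spearman values of 0.95, 0.96 and 0.83. All lie on the X chromosome and were called higher in females, with log2 fold changes of -1.41, -0.77 and -0.94. These are the highest correlations of the table and include the difference between the sexes.

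AMOTL2, a second angiomotin that binds YAP1 through the same kind of motif and is also a transcriptional target of YAP1, lies on chromosome 1 at 134947984 to 134965901. It was at 12.7 CPM at the lowest, 19.1 at the median and 26.5 at the highest in females, and at 14.6, 19.2, 11.2, 11.4 and 6.01 CPM in male replicates 1 to 5. The sexes overlapped, with 3 males below the lowest female and male replicate 5 the lowest of all. The log2 fold change was -0.66 (SE 0.30, 95% interval -1.31 to -0.0045, edgeR adjusted p = 0.372), so AMOTL2 was not called. Within library numbers the difference was 0.14 for number 1, -1.03 for number 2 and -1.21 for number 3. Without male replicate 5 the log2 fold change was -0.46, and in the fit without female replicate 2 it was -0.85. The remaining angiomotin, AMOTL1, was near the limit of the filter, with 20 reads at most in a library. Female libraries averaged 1.02 ± 0.43 CPM (SD, n = 6) and male ones 0.491 ± 0.66 CPM (SD, n = 5), a log2 fold change of -1.12 (SE 0.78, edgeR adjusted p = 0.585).

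The log2 ratio of AMOT to AMOTL2 within a library does not depend on the scaling between libraries. Because transcript lengths were not at hand, the size of a ratio is not read as transcript abundance. Levels of different genes are set side by side only as CPM. The ratio ran from 1.34 to 2.52 in females. In male replicates 1 to 5 it was 1.09, 0.42, 1.56, 0.87 and 2.47. All males but replicate 5 were at 1.56 or lower, and replicate 5, where AMOTL2 was lowest, lay near the highest female. The mean difference of -0.62 did not exceed the spread of the libraries (exact permutation p = 0.141, adjusted p = 0.21), and it was -1.65, -0.02 and -0.04 within the library numbers. Without male replicate 5 the difference was -0.91 (exact permutation p = 0.0286, adjusted p = 0.143), and without male replicate 2 it was -0.40.

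YAP1, the main coactivator of the pathway, lies on chromosome 15 at 6499364 to 6634778. It was at 112 to 145 CPM in females, with a median of 127. The male replicates 1 to 5 had 124, 113, 158, 111 and 94.7 CPM, and the sexes overlapped. Both the highest and the lowest library were male. YAP1 had a log2 fold change of -0.05 with a 95% interval from -0.34 to 0.24, and the adjusted p was 0.916 in edgeR's test. The interval leaves room for a fold change of up to 1.27 toward females, which is under the threshold of 1.5.

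WWTR1, the coactivator TAZ, lies on chromosome 1 at 118496458 to 118645507. Female libraries had from 70.5 to 105 CPM with a median of 84.5, and male replicates 1 to 5 had 102, 87.4, 98.2, 98.0 and 99.9 CPM. All 5 males were above the female median, but 2 females were above every male. WWTR1 had a log2 fold change of 0.16 (95% interval -0.16 to 0.48, edgeR adjusted p = 0.702). The log2 ratio of YAP1 to WWTR1 was 0.29 ± 0.28 (SD, n = 5) in males against 0.53 ± 0.28 (SD, n = 6) in females, a difference of -0.25, which did not exceed the spread of the libraries (exact permutation p = 0.177, adjusted p = 0.21). That difference was 0.01, 0.11 and -0.65 in library numbers 1 to 3, and -0.15 without male replicate 5.

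YAP1 and WWTR1 varied little from library to library in comparison with other genes. The biological coefficient of variation fitted by edgeR was 0.19 for YAP1 and 0.20 for WWTR1, which placed them at percentiles 2.05 and 4.55 of all tested genes, counted from the least variable. From the lowest to the highest library, their levels spanned 1.67-fold and 1.48-fold. TEAD2 and TEAD3, at the other end, had coefficients of 0.40 and 0.39 and percentiles of 61.1 and 58.6. The percentiles rank all genes together, whatever their level. YAP1 had 1032 to 2452 reads per library and TEAD2 had 26 to 178. TEAD3 was at 43.7 CPM in male replicate 5 and at 17.96 CPM at most in the other males. The part of level and of that library in these percentiles was not tested.

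**Figure D3:**
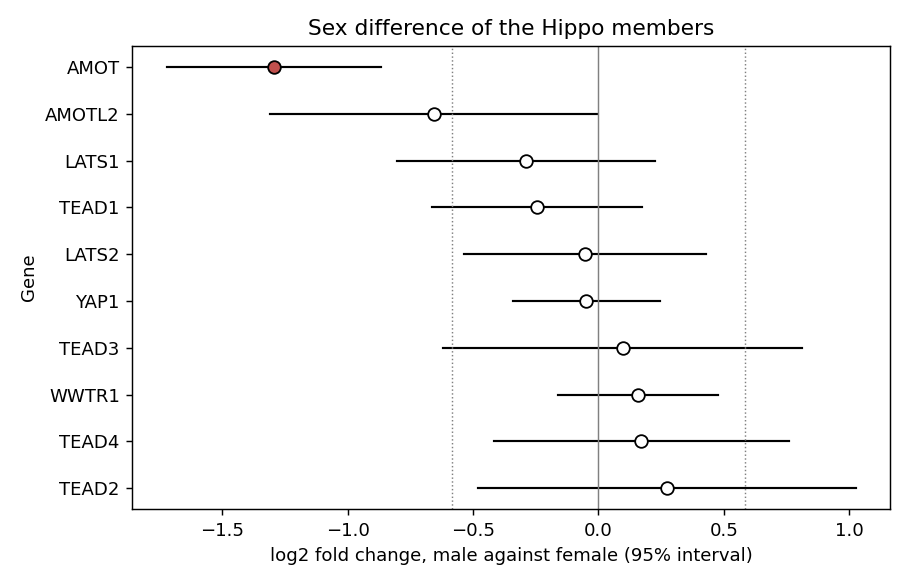
Log2 fold change of males against females for each member, with its 95% interval from edgeR's fit with library number as a block, and with dotted lines at a fold change of 1.5. AMOT is filled as the only call, and its interval from -1.72 to -0.87 lies wholly beyond the threshold. All other intervals reach to within the dotted lines.

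TEAD4 is the TEAD factor that mouse embryos need for trophectoderm. It lies on chromosome 5 at 106768119 to 106834851, and ranged from 25.3 to 58.0 CPM in females with a median of 44.4. Male replicates 1 to 5 had 48.2, 30.0, 48.2, 36.7 and 84.8 CPM, so replicate 5 was above every other library of either sex. For TEAD4 the log2 fold change was 0.17 (95% interval -0.42 to 0.76, edgeR adjusted p = 0.842), and without male replicate 5 it was -0.01.

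TEAD3, on chromosome 23 at 9433297 to 9456466, had the same library at the top. Females ran from 12.2 to 26.7 CPM with a median of 16.0. In male replicates 1 to 5 the levels were 17.96, 10.8, 16.2, 14.5 and 43.7 CPM, the last 2.86 times the median of the other males. The log2 fold change of 0.10 (95% interval -0.62 to 0.81, edgeR adjusted p = 0.934) became -0.26 without that library. TEAD2, on chromosome 18 at 55815643 to 55841617, was the member with the fewest reads, from 26 to 178 per library. It had 2.60 to 5.21 CPM in females, 3.15 to 4.76 CPM in male replicates 1 to 4 and 8.62 CPM in replicate 5. Its log2 fold change was 0.27 with the widest interval of the members, -0.48 to 1.03, and 0.04 without male replicate 5.

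TEAD1, on chromosome 15 at 39740865 to 40015346, did not share that pattern. It was at 40.5 to 61.8 CPM in females, with a median of 50.03, and at 58.2, 32.8, 42.8, 42.6 and 34.6 CPM in male replicates 1 to 5. For TEAD1 the log2 fold change was -0.25 (95% interval -0.67 to 0.17, edgeR adjusted p = 0.639). The log2 ratio of TEAD4 to TEAD1 was 1.29 in male replicate 5 and between -0.27 and 0.17 in the other males, against -0.68 to 0.21 in females. The sexes did not differ in it beyond the spread between libraries, with a mean difference of 0.45 (exact permutation p = 0.182, adjusted p = 0.21) that was 0.17 without male replicate 5.

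In male replicate 5, YAP1, LATS1 and AMOTL2 were at their lowest of all 11 libraries, and TEAD2, TEAD3 and TEAD4 at their highest. AMOT in that library, at 34.0 CPM, was within 1 CPM of male replicate 3. The 10 trophectoderm markers summed to 36145 CPM in it and to 20252 CPM at most in the other males, and the 7 hypoblast markers to 208 CPM and to 314 CPM at least. Single genes carried much of both sums, with KRT8 at 20142 CPM against 6534 CPM at most in the other males and PDGFRA at 17.9 CPM against 113 CPM at least. By gene, 7 of the 10 trophectoderm markers were above all other males, and LGALS3, TFAP2C and PTGS2 were within their range. Of the hypoblast markers, 3 (PDGFRA, GATA6 and COL4A1) were below all other males, SOX17 was above them and 3 were within their range. SOX17 was at 1.21 CPM against 1.16 CPM at most, with 25 reads at most in a library. The 7 ICM markers summed to 896 CPM, within the 844 to 1079 CPM of the other males. Of these markers, 2 were above all other males, 2 below and 3 within their range. POU5F1, at 737 CPM against 519 CPM at most, was above them. SPIC, at 55.8 CPM against 140 CPM at least, was below them. The depth and number of genes of male replicate 5, given above, also stood apart. The part of these in the levels of the members was not tested.

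**Figure D4:**
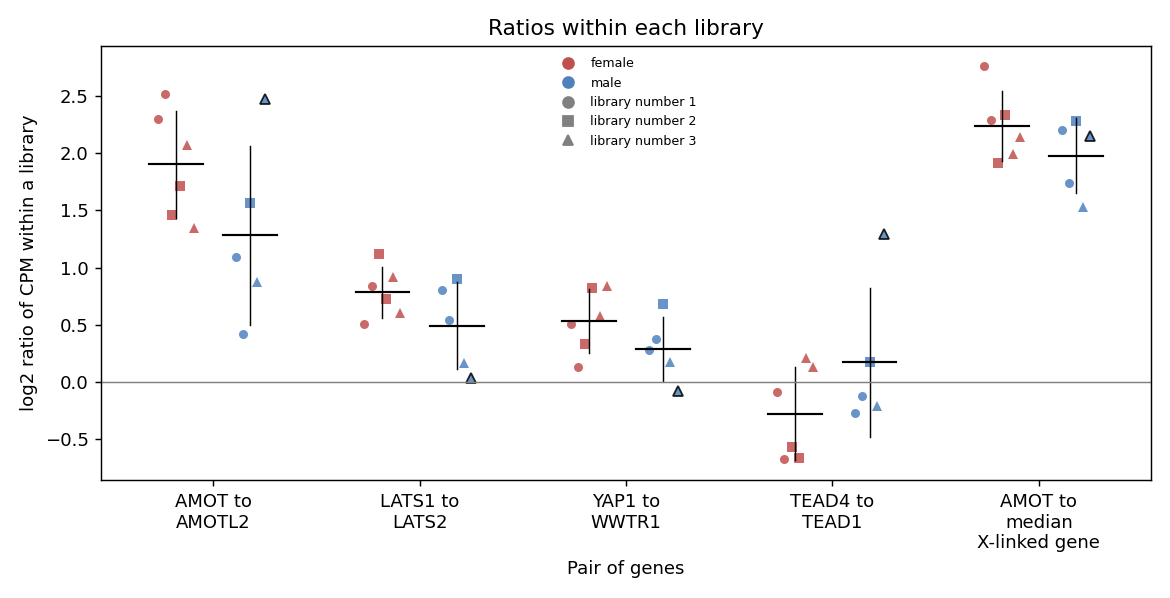
Log2 ratios of CPM within each library for 4 pairs of members and for AMOT against the median X-linked gene, one point per library, with group means and 1 SD. The sexes overlap in every ratio, and male replicate 5 (black outline) is the highest library for TEAD4 to TEAD1 at 1.29 and the lowest for YAP1 to WWTR1 at -0.08 and for LATS1 to LATS2 at 0.04.

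LATS1 and LATS2 are the kinases that phosphorylate YAP1 and WWTR1. LATS1, on chromosome 9 at 86860562 to 86897588, was at 11.9 to 18.8 CPM in females, with a median of 16.9. Male replicates 1 to 5 had 13.8, 9.62, 19.8, 12.1 and 7.41 CPM. Both the highest and the lowest library were male, as for YAP1. Its log2 fold change was -0.29 (95% interval -0.80 to 0.23, edgeR adjusted p = 0.66), and -0.12 without male replicate 5. Within library numbers it was -0.05, 0.11 and -0.86.

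LATS2, on chromosome 12 at 35649270 to 35700350, ran from 6.62 to 10.7 CPM in females and from 6.55 to 10.7 CPM in males. The ranges were nearly the same. For LATS2 the log2 fold change was -0.05, with an interval of -0.54 to 0.43. The log2 ratio of LATS1 to LATS2 had a mean of 0.79 ± 0.22 (SD, n = 6) in females and 0.49 ± 0.38 (SD, n = 5) in males, a difference that did not exceed the spread of the libraries (exact permutation p = 0.154, adjusted p = 0.21). It was -0.30 in all libraries and -0.18 without male replicate 5.

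The members were also compared with each other over the 11 libraries, after removal of each sex's mean, as a description of 45 pairs. YAP1 and LATS1 had the highest correlation (Pearson r = 0.92, Spearman 0.91). It was 0.88 without male replicate 5 and 0.79 without the pair of libraries farthest from the median of YAP1. TEAD3 and TEAD4 followed (Pearson r = 0.85, Spearman 0.84), with 0.78 without male replicate 5 and 0.73 without the pair farthest in TEAD3. LATS1 and LATS2 came next at 0.69. The lowest value was that of LATS1 and TEAD2, -0.75. In 13 of the 45 pairs the sign changed when male replicate 5 was left out. These correlations share the libraries, their depth and their pools.

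Other genes most like YAP1 in level over the libraries were FNDC3B (r = 0.95), MORC3 (r = 0.95) and PHLPP2 (r = 0.94). Those most like TEAD4 were MRPL4 (r = 0.95), NR1H2 (r = 0.93) and WBP2 (r = 0.92). None of these 6 was called sex-biased, and each correlation is among the highest of a table of 7366 genes.

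Beyond the members, 58 further genes of the pathway were taken from lists by role. Of these, 52 had enough counts, and 1 was called. In the same fit 1.91% of all tested genes were called, and 27.7% of X-linked genes were called higher in females. The called gene was USP9X, a deubiquitinase that stabilizes angiomotins among other proteins, and the annotation places it on the X chromosome. Of the other genes, 56 are on autosomes and VGLL1 is not placed on a chromosome. USP9X was at 151, 148, 159, 155, 110 and 106 CPM in female replicates 1 to 6 and at 66.6, 71.8, 80.0, 53.3 and 41.5 CPM in male replicates 1 to 5. No male reached the lowest female, a separation found in 29.2% of the tested X-linked genes. The log2 fold change was -1.10 (SE 0.13, edgeR adjusted p = 0.0018). Of the 50 autosomal genes tested, edgeR called 0. Among all autosomal genes, 0.707% were called. DESeq2 with the library number, which called 4.08% of all its genes, called 1 autosomal gene of the lists (VGLL3). In edgeR without male replicate 5 it was PRKCI, described with its list. Without the filter on low counts, edgeR called 3.11% of all genes and 1 autosomal gene of the lists (ANKRD1).

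None of the 14 genes of the kinase core and its activators was called, with 7 genes below 0, 7 above 0 and a median of -0.04. These include the kinases STK3 and STK4 (the mammalian Hippo kinases), which activate LATS, with log2 fold changes of -0.42 and 0.24. FRMD6, a membrane-linked activator, averaged 11.7 ± 2.61 CPM (SD, n = 6) for females and 7.56 ± 3.48 CPM (SD, n = 5) for males, a value of -0.70 with an adjusted p of 0.314 in edgeR. TAOK1, a kinase upstream of STK3 and STK4, was at -0.56 (edgeR adjusted p = 0.3), with its lowest level, 26.6 CPM, in male replicate 5. The 3 LATS inhibitors of the Ajuba family were not called, with WTIP at 0.71, AJUBA at 0.13 and LIMD1 at 0.08. WTIP was at 11.6 CPM in male replicate 5 and from 2.15 to 3.15 CPM in the other males. Without male replicate 5 its log2 fold change was 0.08.

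**Figure D5:**
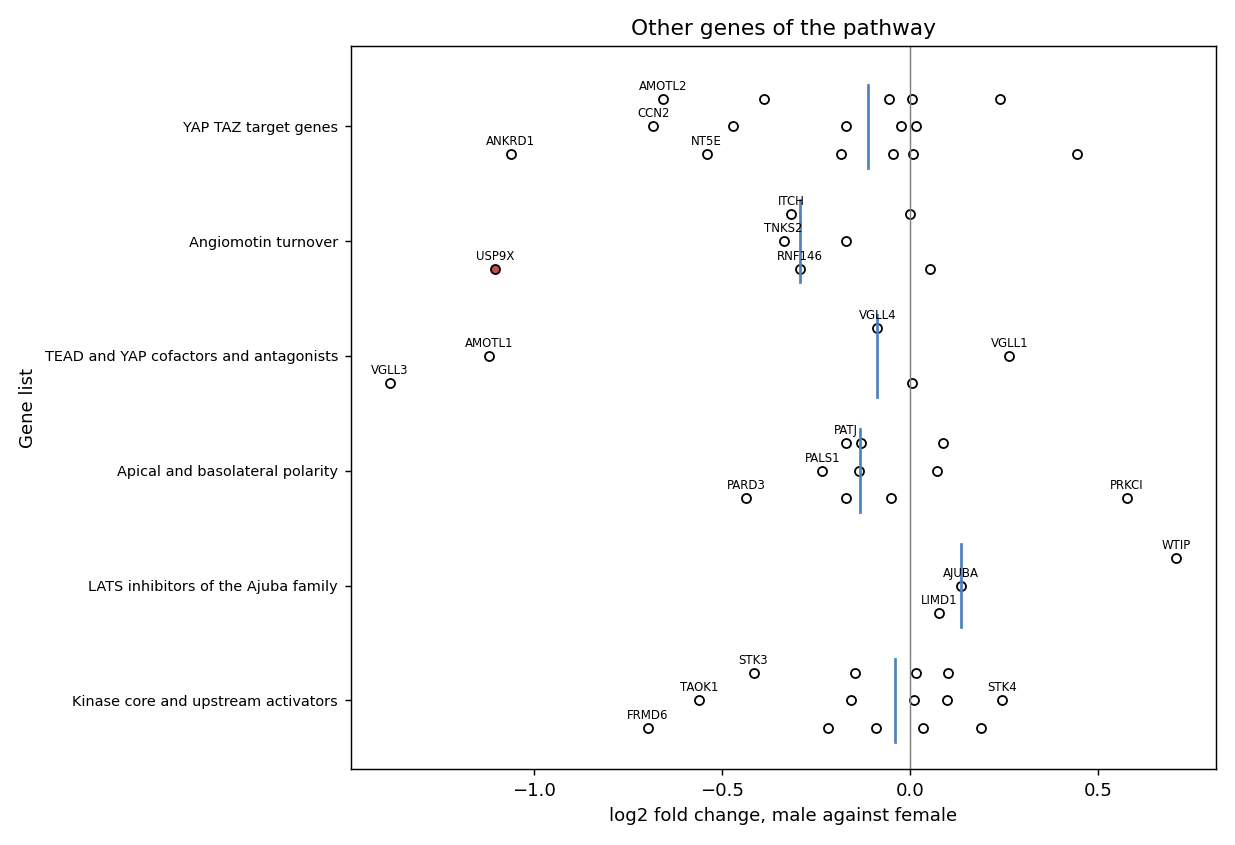
Log2 fold change of males against females for the tested genes of each list, one point per gene, with a blue line at the list's median. Points are offset vertically for legibility, up to 4 genes with the largest differences are named per list, and USP9X, at -1.10, is filled as the only call.

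The polarity genes, whose apical complex controls where angiomotins sit in outer cells, gave 0 calls among 10. PRKCI, the atypical protein kinase C of that complex, averaged 146 ± 28.3 CPM (SD, n = 6) for females and 211 ± 64.6 CPM (SD, n = 5) for males, with a log2 fold change of 0.58 (edgeR adjusted p = 0.234). Male replicate 5 had 116 CPM, the lowest male level, and the other 4 males, at 192 CPM or more, were above every female. Without that library the log2 fold change was 0.75 and PRKCI was called (edgeR adjusted p = 0.0342), in a fit that called 2.81% of all genes. PARD3, its partner, was at -0.44 and PALS1 at -0.23, neither of them called. The list's median was -0.13.

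For turnover of angiomotins, the E3 ligases ITCH and RNF146 and the tankyrase TNKS2 were at -0.32, -0.29 and -0.34 and were not called. Among TEAD and YAP1 cofactors, VGLL3, which binds TEAD in place of YAP1, had the largest value of the pathway lists, on at most 65 reads per library. Female libraries averaged 3.43 ± 1.61 CPM (SD, n = 6) and male ones 1.31 ± 0.38 CPM (SD, n = 5). Every female was above every male, a separation found in 1.88% of all tested genes, at 1.95 CPM or more against 1.84 CPM or less. Its log2 fold change of -1.38 (SE 0.41) had an adjusted p of 0.158 in edgeR and of 0.0429 in DESeq2 with the library number, which called it. VGLL1 was at 0.26 and VGLL4 at -0.09.

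Of 22 genes often used as YAP1 and TAZ targets in cultured cells, LATS2 and AMOTL2 among them, 16 had enough counts. The edgeR test called 0 of these 16. Their median log2 fold change was -0.11, with 11 below 0 and 5 above. CCN2, a matricellular protein, averaged 31.3 ± 12.1 CPM (SD, n = 6) for females and 18.7 ± 6.84 CPM (SD, n = 5) for males, a value of -0.68 (edgeR adjusted p = 0.345). Its close relative CCN1 was at 28.8 ± 6.82 CPM (SD, n = 6) and 28.0 ± 13.1 CPM (SD, n = 5), a value of -0.17. ANKRD1 was listed at 12.6, 8.68, 16.7, 234, 3.60 and 49.7 CPM in female replicates 1 to 6 and at 4.39 to 20.7 CPM in males. Female replicate 4 held most of the female sum. The log2 fold change was -1.06 (SE 0.82, edgeR adjusted p = 0.632), and without the filter on low counts edgeR gave it an adjusted p of 0.00509.

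The 6 trophectoderm genes listed as targets of TEAD4, direct or through other factors, gave 0 calls and a median of 0.01. Their dependence on TEAD4 was not tested in these bovine embryos. GATA3 averaged 147 ± 39.4 CPM (SD, n = 6) for females and 125 ± 34.8 CPM (SD, n = 5) for males, a log2 fold change of -0.27, and GATA2 was at -0.22. CDX2 was at 4.63 ± 2.10 CPM (SD, n = 6) and 7.86 ± 9.79 CPM (SD, n = 5), a value of 0.35 with an SE of 0.50. Male replicate 5 had 25.3 CPM of CDX2, and male replicates 1 to 4 had from 2.64 to 4.22 CPM. Without male replicate 5 the log2 fold change of CDX2 was -0.33. For the keratin KRT8 the value was 0.51, with an adjusted p of 0.569 in edgeR, and it was 0.09 without male replicate 5.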

How the data were processed

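RNA-seq libraries of expanded blastocysts, 6 female and 5 male, came from amplified full-length cDNA (SMART-Seq HT PLUS). Per the labels and the methods of the study, the authors used fastp 0.20.0 for trimming, STAR 2.7.10b for alignment against ARS-UCD and featureCounts for counting, and deposited raw whole-number counts per gene. The counting is not stated to use strand. Of 32637 symbols, 30271 matched the RefSeq gene table of that assembly, which gives gene spans and no transcript lengths.

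Counts were tested in R 4.3.3 with edgeR 4.0.16 (filterByExpr by sex, 12802 genes, TMM factors, quasi-likelihood test, Benjamini-Hochberg adjustment), with sex and the first number of the library name (1 to 3) as a block. The study used DESeq2 with the collection week as a covariate, and the call thresholds follow it. The labels do not give the week, and whether the number is the week is not known. Each SE is the absolute log2 fold change divided by the square root of edgeR's F statistic. Intervals are 95% t intervals built from that SE. Log2 CPM used a prior count of 2. Ratios were tested by two-sided exact permutation over every split into 6 and 5 libraries (smallest p = 0.00216), adjusted over the 5 ratios. DESeq2 1.42.0 was an alternative. Descriptive statistics used python 3.11.15, numpy 2.4.6, pandas 2.3.3 and scipy 1.17.1. The test was checked on simulated counts.

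The members were given by symbol, and the members, lists and tests were chosen with earlier results of these data known. The named genes are the members, the genes of each list that were called or were among the 4 with the largest differences, the genes around AMOT, and the 3 genes most like AMOT, YAP1 and TEAD4. CCN1 and MYOF were added as context after their values were seen. So were the single markers named with the marker lists and those named for male replicate 5. One list chosen with these is not reported here. TDGF1 was matched under its RefSeq symbol CRIPTO. No 2 libraries were copies of each other, with correlations of log2 CPM across genes from 0.929 to 0.961 within females and 0.861 to 0.963 within males. P-values measure the spread between pools.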

Additional observations from a re-analysis of the deposited data

Results flagged for a closer look

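In groups of this size, a library was singled out when its gap to the nearest other library of its sex was a larger part of the sex's range than Dixon's 95% critical value allows, which chance gives to about 1 in 20 groups. Of 30 groups examined (10 members and 5 ratios in each sex), 3 had such a library. TEAD3 in male replicate 5 was at 43.7 CPM, while males 1 to 4 did not exceed 17.96 CPM. The log2 ratio of TEAD4 to TEAD1 in the same library was 1.29, while males 1 to 4 did not exceed 0.17. WWTR1 in male replicate 2 was at 87.4 CPM, below the other males, which lay between 98.0 and 102 CPM, and within the female range of 70.5 to 105 CPM.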

How the results depend on the processing

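AMOT was called higher in females in all 20 alternative fits. Its log2 fold change ran from -1.41 (without male replicate 5) to -1.22 (without female replicate 1). In tests of no difference, the adjusted p ran from 8.05e-08 (DESeq2, no replicate block) to 0.0372 (edgeR without male replicate 3). In edgeR's glmTreat, which tests for a change beyond 1.5-fold, the adjusted p was 0.0776. The log2 fold change of AMOT was also taken with other blocks. It was -1.31 with no replicate block and -1.25 with a replicate block from both numbers of the library name. No other member was called in any of the 20 fits. Direction turned for 4 members that were not called. Over the fits that each left out 1 library, the log2 fold change of YAP1 ran from -0.13 (without male replicate 3) to 0.021 (without male replicate 5). For TEAD3 it ran from -0.26 (without male replicate 5) to 0.30 (without female replicate 1), with -0.06 without female replicate 6. For TEAD4 it ran from -0.010 (without male replicate 5) to 0.41 (without female replicate 1), and for LATS2 from -0.13 (without male replicate 4) to 0.040 (without male replicate 5). The cause was not tested. Of the 58 further pathway genes, counted after the data were seen, 1 was called in 16 of the 20 fits and 2 in DESeq2 with and without the library number, in edgeR on all genes with any count and without male replicate 5. Fits without 1 library called from 1 to 2. USP9X was among them in all 20. No ratio had an adjusted p under 0.05 in any of its 13 alternatives.

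The number of sex-biased genes in edgeR over the whole table was 245, and it depended on the settings. It was 326 with no replicate block, 187 with the block from both numbers, 652 by DESeq2 with the library number as a replicate block, 739 by DESeq2 without it, 743 on every gene with at least 1 count and 62 by glmTreat at a fold change of 1.5. Leaving out 1 library gave from 95 (without male replicate 3) to 364 (without male replicate 5). It was 105, 131, 110 and 148 without female replicates 2, 4, 5 and 6, and 156 and 114 without male replicates 1 and 2. Not every pair of same-numbered libraries deviated together. Deviations from the sex means correlated between -0.11 and 0.35 for female and male libraries of the same first number (median 0.00049, 10 pairs), and between -0.30 and 0.24 for the others (median -0.05, 20 pairs). For the 5 pairs that share both numbers the median was 0.24, and 3 of them were over 0.1. TEAD2, LATS2, LATS1 and TEAD3 had the fewest reads of the members, with lowest libraries of 26, 61, 91 and 102 reads.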
